A study of Homo sapiens with 4 samples.

Results

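The liver releases most of the proteins that circulate in blood plasma, and 43 of their genes were described here, chosen by name as carriers, protease inhibitors and acute-phase proteins. All 43 were found by gene number among the 46427 genes of the tables. RNA was sequenced from Huh7 and HepG2, established human liver tumour lines that the labels call hepatocellular carcinoma. Cells had received 20 nM of either a negative control siRNA (NC-siRNA, genotype WT in the labels) or an siRNA against COP1 (COP1-siRNA, COP1 Knockdown in the labels), and were collected after 48 h. Each line and siRNA had 1 library, 4 in all and of the same batch. Differences therefore have no replicate check, no error and no p-value. The 4 libraries come from 2 lines under transient transfection. Levels are in TPM (transcripts per 1000000, scaled for gene length and set to sum to 1000000 in each library). A difference is log2 of the ratio of (TPM + 1), which understates changes at low levels, and a gene was tested where at least 1 of the libraries compared had 1 TPM or more.

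Hepatocytes secrete albumin and a set of specific carriers for hormones, vitamins, metals and heme, together with inhibitors that hold plasma proteases in check. In inflammation, interleukin-6 acts through STAT3, and interleukin-1 through NF-kB and C/EBP factors, to raise acute-phase genes such as CRP and SAA1, while albumin and transthyretin fall. The basal transcription of many of these genes depends on liver factors of the HNF4, FOXA and C/EBP families. COP1 is an E3 ubiquitin ligase that marks transcription factors for degradation.

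The targeted gene, COP1, was at 19.7 and 6.18 TPM in Huh7 and at 26.9 and 16.1 TPM in HepG2 with NC-siRNA and COP1-siRNA, which leaves 31.4% and 59.9% of the control level. Throughout, pairs of values are given in this order of siRNAs. Relative depth, taken as coverage divided by FPKM, lay between 5.75 and 7.47, and the COP1-siRNA library was the deeper one in both lines. The number of reads is unknown, so no counting error can be given. The labelled cell type was checked against 8 hepatocyte and hepatoma markers, all of which were above 1 TPM in every library. Alpha-fetoprotein (AFP) was at 7444 and 6907 TPM in Huh7 and at 370 and 399 TPM in HepG2. Of the markers of other liver cells, PTPRC, CD163 and DCN were at 0 in all 4 libraries. Of the other listed markers, KRT19, SOX9, CD68 and LYZ were at 15.6 TPM or more in every library, so these genes do not set such cells apart here. Only in Huh7 were PECAM1 (5.08 and 7.36 TPM) and CD14 (4.47 and 2.24 TPM) above 1 TPM. Only in HepG2 were ACTA2 (11.1 and 15.4 TPM) and COL1A1 (2.33 and 2.47 TPM) above it. The remaining markers of other liver cells stayed under 1 TPM in every library.

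The 43 genes made up a larger share of the RNA in Huh7 than in HepG2. They held 1.93% of all TPM in Huh7 with NC-siRNA and 1.70% with COP1-siRNA. In HepG2 the share was 0.378% with NC-siRNA and 0.439% with COP1-siRNA. Both Huh7 libraries were thus above both HepG2 libraries, while the share was lower with COP1-siRNA in Huh7 and higher in HepG2. Albumin alone was 36.4% to 42.1% of the summed TPM of the genes. Without it, the share was 1.11% and 1.03% in Huh7 and 0.227% and 0.279% in HepG2.

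**Figure D1:**
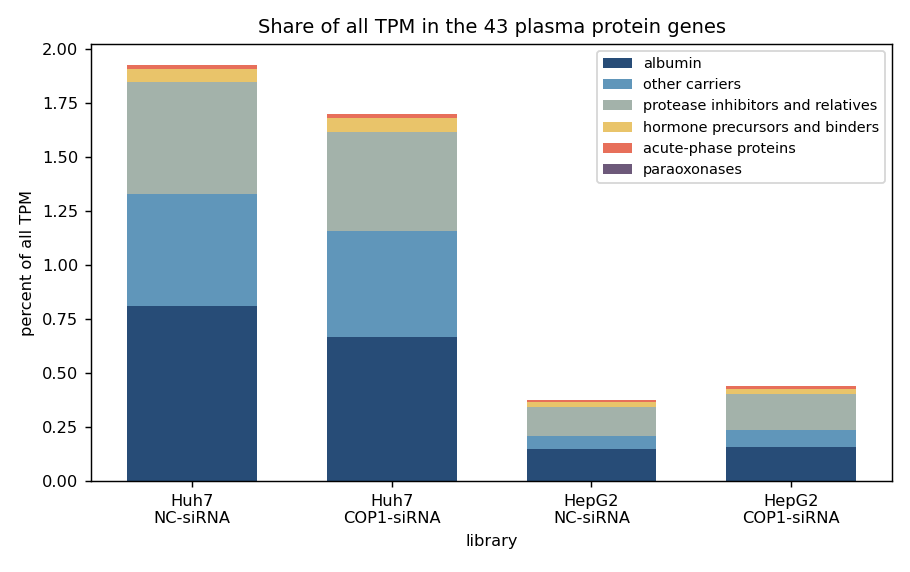
Stacked bars show the percent of all TPM held by the 43 plasma protein genes in each of the 4 libraries, split by the role of the protein. The Huh7 bars reach 1.93% and 1.70% and the HepG2 bars 0.378% and 0.439%, with albumin the largest single segment in Huh7.

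Across all 4 libraries, levels ran from 0 for CRP to 8117 TPM for albumin. In Huh7, 17 genes reached 100 TPM with NC-siRNA and 16 with COP1-siRNA, against 10 and 12 in HepG2. At the other end, 5 genes (CRP, PZP, ITIH1, ITIH4 and LBP) stayed under 1 TPM in every library and were tested in no comparison. CRP, the classical acute-phase reactant, was listed at 0 in all 4. A listed 0 need not mean absence, but none of 83 genes that every cell uses, mostly ribosomal proteins, was at 0 in any library. PZP, a relative of alpha-2-macroglobulin, did not exceed 0.0412 TPM. ITIH1 and ITIH4, heavy chains of inter-alpha-trypsin inhibitor, lay between 0.106 and 0.504 TPM. LBP, which binds bacterial lipopolysaccharide, was at 0.550 and 0.825 TPM in Huh7 and at 0 and 0.0551 TPM in HepG2.

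**Figure D2:**
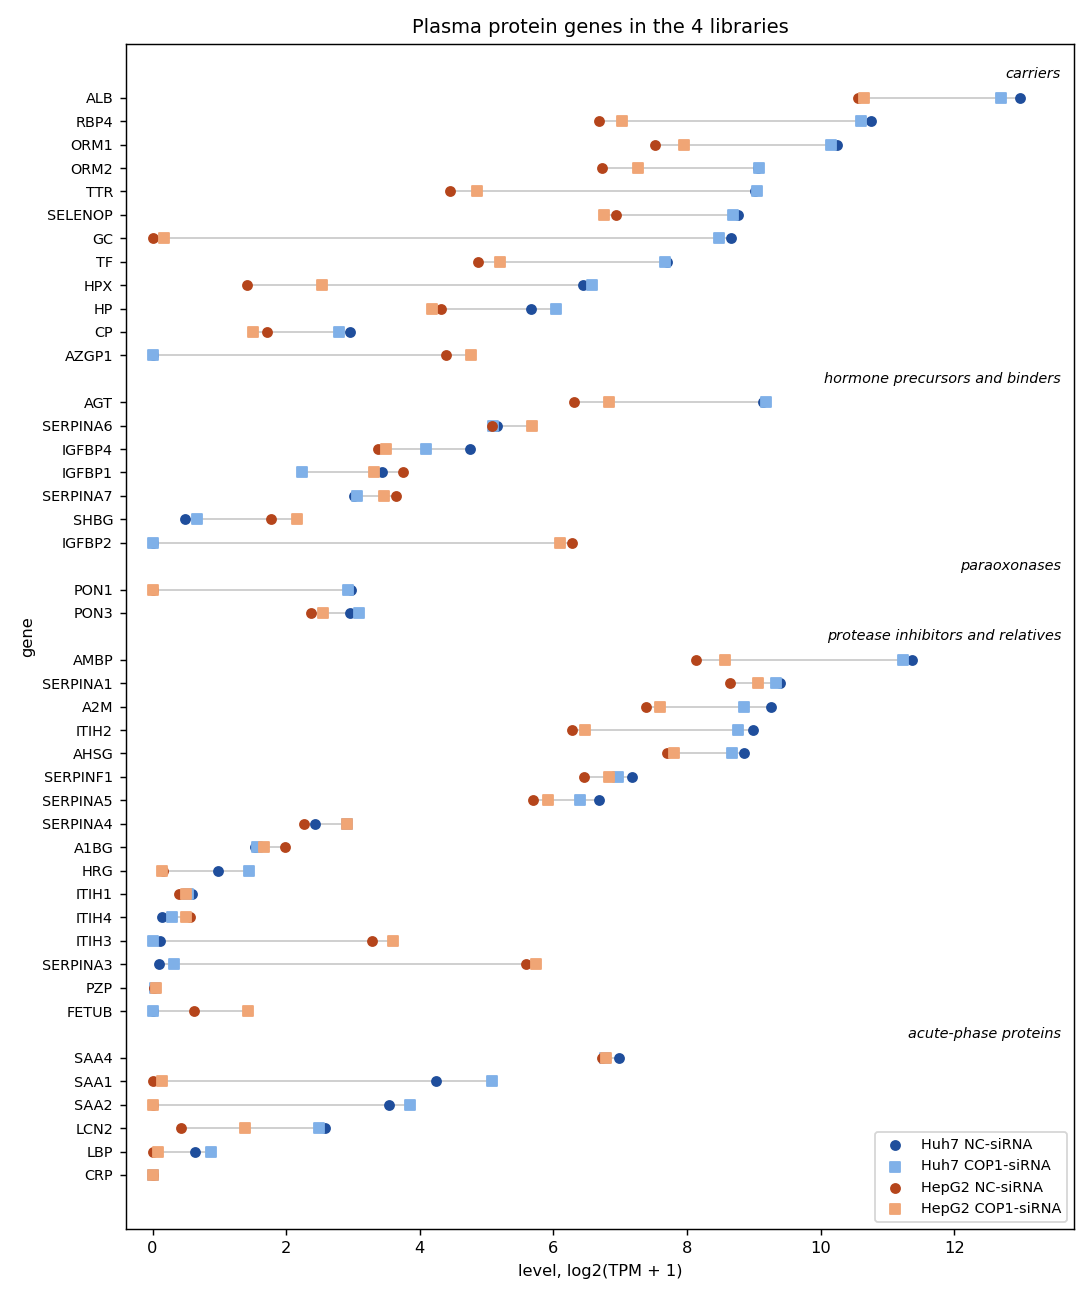
Each row is a gene and each symbol its level, as log2(TPM + 1), in 1 library; grey lines join the lowest and the highest of the 4. Blue Huh7 symbols lie to the right of the orange HepG2 symbols for most carriers, and to the left for AZGP1, IGFBP2, SERPINA3 and ITIH3.

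Among the carriers, albumin (ALB, gene 213, chr4:73404287-73421482, plus strand, GRCh38) was the most abundant in every library. It was at 8117 TPM in Huh7 with NC-siRNA, 6683 with COP1-siRNA, 1509 in HepG2 with NC-siRNA and 1598 with COP1-siRNA. By TPM it ranked 9 and 11 among all genes in Huh7 and 96 and 94 in HepG2. Retinol-binding protein (RBP4), which carries vitamin A, was at 1722 and 1562 TPM in Huh7 and at 101 and 130.1 TPM in HepG2. Transthyretin (TTR), which carries thyroxine and holds RBP4 in the circulation, was at 520.1 and 526 TPM in Huh7 and at 20.9 and 27.9 TPM in HepG2. For both genes the Huh7 levels were far above those of HepG2, 17.0- and 12.0-fold for RBP4 and 24.9- and 18.8-fold for TTR, with NC-siRNA and COP1-siRNA respectively.

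The vitamin D carrier GC (gene 2638, chr4:71741693-71805520, minus strand) was the carrier with the sharpest contrast between the lines. It was at 401 and 355 TPM in Huh7, listed at 0 in HepG2 with NC-siRNA and at 0.129 TPM in HepG2 with COP1-siRNA, so no fold is given. AZGP1, a zinc-binding glycoprotein, had the opposite pattern. It was listed at 0 in both Huh7 libraries and at 20.0 and 26.3 TPM in HepG2. Hemopexin (HPX), which binds free heme, was at 85.8 and 95.0 TPM in Huh7 but at 1.67 and 4.82 TPM in HepG2.

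Carriers of iron and copper also differed between the lines. Transferrin (TF), the iron carrier, was at 206 and 203 TPM in Huh7 and at 28.3 and 36.0 TPM in HepG2. Haptoglobin (HP), which binds free hemoglobin, was at 49.5 and 65.1 TPM in Huh7 and at 18.9 and 17.2 TPM in HepG2. Of the 50-base windows of an HP transcript, 29.6% occur also in HPR, a neighbouring paralog at 2.96 to 7.69 TPM, so a part of its reads cannot be assigned with certainty. Ceruloplasmin (CP), the copper carrier, was low in both lines, with 6.76 and 5.91 TPM in Huh7 and 2.27 and 1.85 TPM in HepG2. Selenoprotein P (SELENOP), which delivers selenium to other tissues, was at 435 and 413 TPM in Huh7 and at 122 and 107 TPM in HepG2. Reads of TF and of CP may also be shared with overlapping genes, SRPRB on the same strand as TF (106 to 141 TPM) and HPS3 on the strand opposite to CP (14.3 to 44.2 TPM), and whether counting used the strand is not stated. All 5 of TF, HP, CP, SELENOP and HPX were higher in both Huh7 libraries than in either HepG2 library.

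ORM1 and ORM2 encode the alpha-1-acid glycoproteins, acute-phase carriers of basic and neutral drugs. Their coding sequences of 603 bases are 94.9% identical, with 31 differing bases and no gap. A read can be assigned to 1 of them only where it covers a difference, so both are shown here in the stretch of 30 bases, within 1 exon, that holds the most differences (9). Capitals mark the bases that differ. The stretch covers bases 374 to 403 of each coding sequence, in exon 4 (GRCh38, chromosome 9, plus strand), at chr9:114324835-114324864 for ORM1 and chr9:114331612-114331641 for ORM2.
ORM1: ccaagacctACatgCttgCttTTGacGtgA
ORM2: ccaagacctTGatgTttgGttCCTacCtgG
Of the 50-base windows of the ORM1 transcript, 47.4% occur also in ORM2, and 50.2% of those of ORM2 occur in ORM1.

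In Huh7 ORM1 was at 1219 and 1139.8 TPM and in HepG2 at 182 and 246 TPM. ORM2 was at 533 and 537 TPM in Huh7 and at 105 and 153 TPM in HepG2. ORM1 was the higher of the pair in each library, with 69.6% and 68.0% of their sum in Huh7 and 63.3% and 61.6% in HepG2. The sum, which depends less on how reads were divided between the pair, was 1752 and 1677 TPM in Huh7 and 287 and 399.8 TPM in HepG2.

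Among the protease inhibitors, the highest in Huh7 was AMBP (gene 259, chr9:114060127-114078300, minus strand), the precursor of alpha-1-microglobulin and of bikunin, the light chain of inter-alpha-trypsin inhibitor. AMBP was at 2644 and 2419 TPM in Huh7 and at 280.2 and 378 TPM in HepG2. ITIH2, a heavy chain that is joined to bikunin, was at 507 and 434 TPM in Huh7 and at 76.8 and 87.8 TPM in HepG2. ITIH3, another heavy chain, was at 0.0756 TPM and 0 in Huh7 and at 8.79 and 11.2 TPM in HepG2. The family was therefore not uniform. AMBP and ITIH2 were higher in Huh7 and ITIH3 in HepG2, while ITIH1 and ITIH4 were under 1 TPM in both lines. Of the 50-base windows of an ITIH4 transcript, 92.4% occur also in another locus of the reference annotation, and of an ITIH1 transcript 0%. Whether this affects the ITIH4 values was not tested.

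Alpha-1-antitrypsin (SERPINA1, gene 5265, chr14:94376747-94390654, minus strand), the main plasma inhibitor of neutrophil elastase, was at 671 and 642 TPM in Huh7 and at 399 and 536 TPM in HepG2. It was the most abundant of the inhibitors in HepG2, and the line difference of 0.75 with NC-siRNA and 0.26 with COP1-siRNA on the log2 scale was under 2-fold. SERPINA3 (alpha-1-antichymotrypsin), an acute-phase inhibitor of cathepsin G, was at 0.0718 and 0.246 TPM in Huh7 and at 47.0 and 52.4 TPM in HepG2. In the reference annotation, 56.6% of the 50-base windows of a SERPINA3 transcript occur also in an unnamed overlapping locus. SERPINA5, the protein C inhibitor, was at 102 and 83.7 TPM in Huh7 and at 51.0 and 59.4 TPM in HepG2. SERPINA4 (kallistatin) was low in both lines, with 4.42 and 6.49 TPM in Huh7 and 3.82 and 6.50 TPM in HepG2, and the lines overlapped.

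The broad-range inhibitor alpha-2-macroglobulin (A2M) was at 610.5 and 460.1 TPM in Huh7 and at 167 and 192 TPM in HepG2. Fetuin-A (AHSG), which keeps calcium phosphate in solution, was at 461 and 406 TPM in Huh7 and at 207 and 224 TPM in HepG2. SERPINF1, a serpin without inhibitory activity that is known as pigment epithelium-derived factor, was at 144 and 124 TPM in Huh7 and at 87.3 and 113 TPM in HepG2. The level of SERPINF1 depends on the column used, since its TPM was 4.07 to 4.08 times its depth-scaled coverage (coverage divided by the coverage that 1 TPM stands for in most single-transcript genes) in the 4 libraries. FETUB, a relative of fetuin-A, was listed at 0 in Huh7 and was at 0.534 and 1.69 TPM in HepG2. HRG, another plasma glycoprotein of the cystatin family, was at 0.974 and 1.73 TPM in Huh7 and at 0.114 and 0.107 TPM in HepG2. A1BG, of unknown function, was at 1.89 to 2.97 TPM, and 94.1% of the 50-base windows of its transcript occur also in another annotated locus.

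Of the hormone precursors and hormone-binding proteins, angiotensinogen (AGT), the precursor of angiotensin, was the most abundant. It was at 563 and 579 TPM in Huh7 and at 78.1 and 112 TPM in HepG2. Corticosteroid-binding globulin (SERPINA6) was at 34.8 and 33.2 TPM in Huh7 and at 32.9 and 50.5 TPM in HepG2. Thyroxine-binding globulin (SERPINA7) was at 7.09 and 7.31 TPM in Huh7 and at 11.5 and 10.1 TPM in HepG2. The sex hormone carrier SHBG was under 1 TPM in Huh7 and at 2.41 and 3.46 TPM in HepG2. The level of SHBG depends on the column used, since its TPM was 2.76 to 3.51 times its depth-scaled coverage. That coverage was 0.144 and 0.168 in Huh7 and 0.841 and 1.11 in HepG2. SHBG overlaps FXR2 and SAT2 on the opposite strand, both at 34.8 TPM or more. Whether this affects its values was not tested. SERPINA6 thus overlapped between the lines, and SERPINA7 and SHBG were higher in HepG2.

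The 3 IGF-binding proteins, which control the access of insulin-like growth factors to their receptor, differed in their pattern. IGFBP2 (gene 3485, chr2:216632828-216664436, plus strand) was listed at 0 in both Huh7 libraries and was at 76.8 and 67.4 TPM in HepG2. These HepG2 values are uncertain, because the mean coverage of the gene was 9.51 and 10.4 reads per base, which corresponds to 3.82 and 3.33 on the depth-scaled coverage scale. IGFBP4 was at 26.1 and 16.1 TPM in Huh7 and at 9.35 and 10.3 TPM in HepG2. IGFBP1 was at 9.80 and 3.71 TPM in Huh7 and at 12.4 and 8.98 TPM in HepG2, so the lines overlapped.

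The paraoxonases are enzymes carried on high-density lipoprotein. PON1 was at 6.80 and 6.58 TPM in Huh7 and listed at 0 in both HepG2 libraries. Its neighbour PON3 was detected in both lines, at 6.77 and 7.50 TPM in Huh7 and 4.16 and 4.87 TPM in HepG2.

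The serum amyloid A genes encode apolipoproteins of which SAA1 and SAA2 are induced in inflammation and SAA4 is produced constitutively. SAA1 was at 18.0 and 32.7 TPM in Huh7, listed at 0 in HepG2 with NC-siRNA and at 0.0999 TPM in HepG2 with COP1-siRNA. SAA2 was at 10.6 and 13.5 TPM in Huh7, which is 3.73 and 3.68 times its depth-scaled coverage, and listed at 0 in both HepG2 libraries. SAA4 was at 126 and 108 TPM in Huh7 and at 105 and 109 TPM in HepG2. The inducible pair was thus read in Huh7 and hardly in HepG2, whereas SAA4 overlapped between the lines. LCN2 (lipocalin 2), which binds bacterial siderophores, was at 5.00 and 4.63 TPM in Huh7 and at 0.348 and 1.60 TPM in HepG2.

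SAA1 and SAA2 are the other near-identical pair, with 97.0% identity over 366 coding bases and 11 differing bases. They are shown in the stretch of 30 bases, within 1 exon, that holds the most differences (5), with the differing bases in capitals. It covers bases 232 to 261 of the coding sequences in exon 4, at chr11:18269718-18269747 on the plus strand for SAA1 and chr11:18245485-18245514 on the minus strand for SAA2, both in GRCh38.
SAA1: GatgccagagagaatatccagagaTtcTTT
SAA2: AatgccagagagaatatccagagaCtcACA
SAA2 and SAA4 also overlap the read-through gene SAA2-SAA4 on their strand, which was at 5.82 and 6.14 TPM in Huh7 and at 0.422 and 0.366 TPM in HepG2. The sum of SAA1 and SAA2 was 28.6 and 46.2 TPM in Huh7, and 0 and 0.0999 TPM in HepG2.

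For the comparison of the lines, Huh7 was set against HepG2 within each siRNA. Of 36 genes tested with NC-siRNA, 21 were at least 2-fold higher in Huh7 (58.3%) and 5 at least 2-fold lower (13.9%). Among all 15055 genes tested there, 14.7% were higher and 27.9% lower by as much. Of 38 genes tested with COP1-siRNA, 20 were higher (52.6%) and 7 lower (18.4%), against 14.0% and 26.0% of all 15126 genes. The median log2 difference of the genes tested was 1.37 with NC-siRNA and 1.19 with COP1-siRNA, while the median over all genes tested was −0.37 and −0.35. In each comparison 6 of the genes counted were listed at 0 in 1 of the libraries. A gene passes the minimum level through the line where it is high, so counts over tested genes favour differences. Over all 43 genes, the median log2 difference was 0.98 with NC-siRNA and 0.79 with COP1-siRNA.

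**Figure D3:**
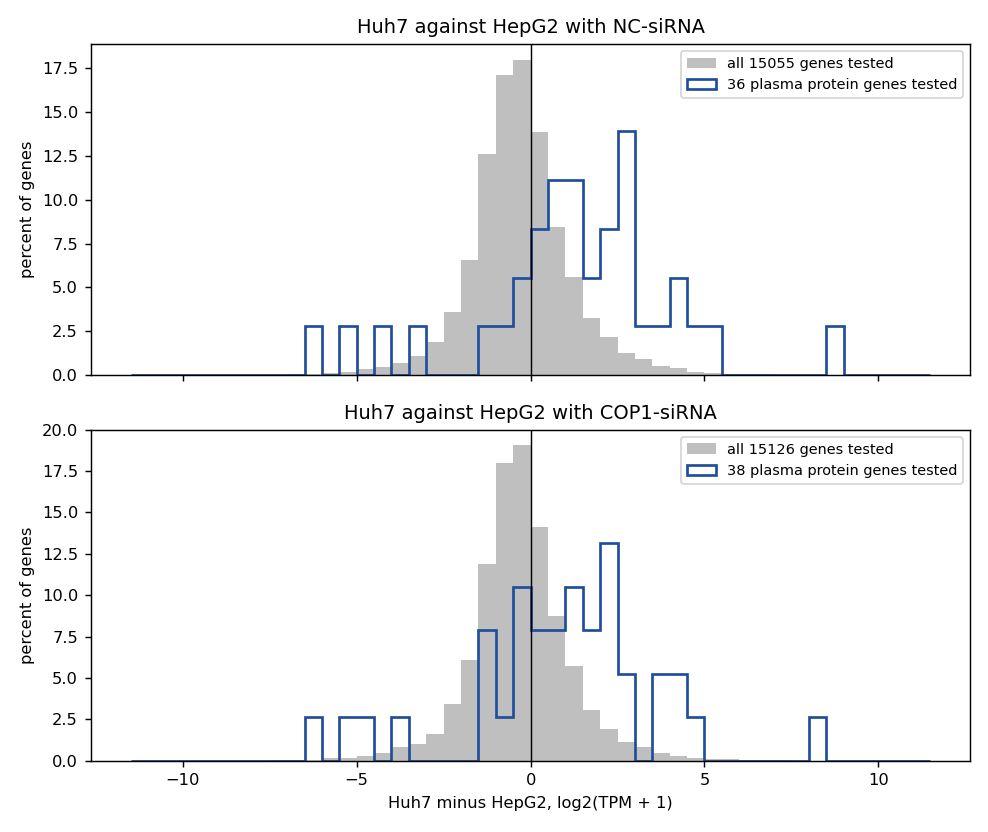
Histograms show the log2 difference of Huh7 and HepG2 for all genes tested (grey) and for the plasma protein genes tested (blue outline), as percent of the genes in bins of 0.5, with NC-siRNA above and COP1-siRNA below. The blue outline lies to the right of the grey one, with medians of 1.37 and 1.19 against −0.37 and −0.35, and has separate genes at the far left and right.

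With both siRNAs, 13 of 36 genes were at least 4-fold higher in Huh7, against 4.91% of 14695 genes tested with both siRNAs. They were ALB, TTR, TF, RBP4, GC, HPX, ORM1, AGT, PON1, AMBP, ITIH2, SAA1 and SAA2. A further 4 genes were at least 4-fold lower in Huh7, against 7.44% of all genes, namely AZGP1, IGFBP2, SERPINA3 and ITIH3. At 2-fold the counts were 19 higher and 5 lower, against 12.8% and 23.6% of all genes. Both Huh7 libraries were above both HepG2 libraries for 25 of the 36 genes and below them for 7, where the shares of all genes were 31.4% and 56.9%. The 4 other genes, SERPINA6, IGFBP1, SERPINA4 and SAA4, overlapped. As the tables hold RNA of whole cultures, fewer cells with a transcript and less RNA per cell cannot be told apart.

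Differences between the siRNAs were smaller than those between the lines. The median absolute log2 difference of the genes tested was 0.16 in Huh7 and 0.34 in HepG2 between the siRNAs (0.15 and 0.14 over all genes), and 2.24 and 1.83 between the lines (0.83 and 0.79 over all genes). In Huh7, 1 of 32 genes tested was at least 2-fold lower with COP1-siRNA (3.12%) and none was 2-fold higher, against 0.446% and 0.638% of 13000 genes tested. In HepG2, 1 of 33 genes was at least 2-fold higher (3.03%) and none was 2-fold lower, against 0.540% and 0.394% of 14456 genes. These counts of 1 are too few to set apart from the background. At 1.5-fold, 1 gene was higher and 2 were lower in Huh7, where 2.80% and 2.68% of all genes were. At 1.5-fold in HepG2, 5 genes were higher (15.2%) and none was lower, where 2.56% and 1.87% of all genes were. Of these, LCN2 and FETUB passed the minimum level only through the COP1-siRNA library, where they were higher, so this count favours increases. With a minimum of 5 TPM, HPX, LCN2 and FETUB were not tested.

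The gene past 2-fold in Huh7 was IGFBP1 (gene 3484, chr7:45888488-45893660, plus strand), an insulin-repressed binding protein. Its levels in Huh7 were 9.80 and 3.71 TPM (log2 difference −1.20) and in HepG2 12.4 and 8.98 TPM (log2 difference −0.43). Mean coverage of IGFBP1 was 26.2 and 11.7 reads per base in Huh7 and 30.9 and 28.0 in HepG2, with the COP1-siRNA library deeper in each line. By plain TPM the Huh7 level was 2.64-fold lower with COP1-siRNA. With FPKM in place of TPM the Huh7 value was −0.95, under 2-fold. TPM was 2.46 and 2.36 times FPKM in these libraries, so the added 1 weighs more with FPKM, which is no separate measurement. IGFBP4 was the second gene past 1.5-fold downward in Huh7, from 26.1 to 16.1 TPM with a log2 difference of −0.66, and it was at 9.35 and 10.3 TPM in HepG2 with 0.12.

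HPX (gene 3263, chr11:6431049-6440987, minus strand) was the gene past 2-fold in HepG2. HPX went from 1.67 to 4.82 TPM there, a log2 difference of 1.12 and 2.89-fold by plain TPM, and its coverage from 4.16 to 15.1 reads per base. In Huh7, where HPX was already at 85.8 TPM, it went to 95.0 TPM with a log2 difference of 0.15. With FPKM, where the added 1 weighs more, the HepG2 value was 0.83, and with a minimum of 5 TPM the gene was not tested. Even with COP1-siRNA, HPX in HepG2 stayed far under both Huh7 levels.

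Another 4 genes were at least 1.5-fold higher with COP1-siRNA in HepG2. LCN2 went from 0.348 to 1.60 TPM, a log2 difference of 0.95, and FETUB from 0.534 to 1.69 TPM with 0.81. Both rest on low coverage, 0.867 and 5.00 reads per base for LCN2 and 1.29 and 4.56 for FETUB. SERPINA4 went from 3.82 to 6.50 TPM with a log2 difference of 0.64, and SERPINA6 from 32.9 to 50.5 TPM with 0.60. In Huh7, SERPINA4 had a log2 difference of 0.47, LCN2 of −0.09 and SERPINA6 of −0.07, while FETUB was listed at 0 with both siRNAs.

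SAA1 was the gene past 1.5-fold upward in Huh7, from 18.0 to 32.7 TPM, a log2 difference of 0.83. SAA2 beside it went from 10.6 to 13.5 TPM with 0.32. Summed over the pair, the log2 difference was 0.68. The sum does not wholly remove the division of reads between them. In Huh7, TPM was 1.34 and 1.36 times the depth-scaled coverage for SAA1, but 3.73 and 3.68 times for SAA2. The read-through gene SAA2-SAA4 is not in the sum. CRP was listed at 0 with both siRNAs and has no direction. SAA4, which is produced constitutively, went from 126 to 108 TPM with a log2 difference of −0.22, and LCN2 had −0.09. In Huh7 the inducible pair SAA1 and SAA2 was thus higher, and SAA4 and LCN2 were slightly lower. HP, also an acute-phase gene, had log2 differences of 0.39 in Huh7 and −0.13 in HepG2, and those of ORM1 were −0.10 and 0.43.

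**Figure D4:**
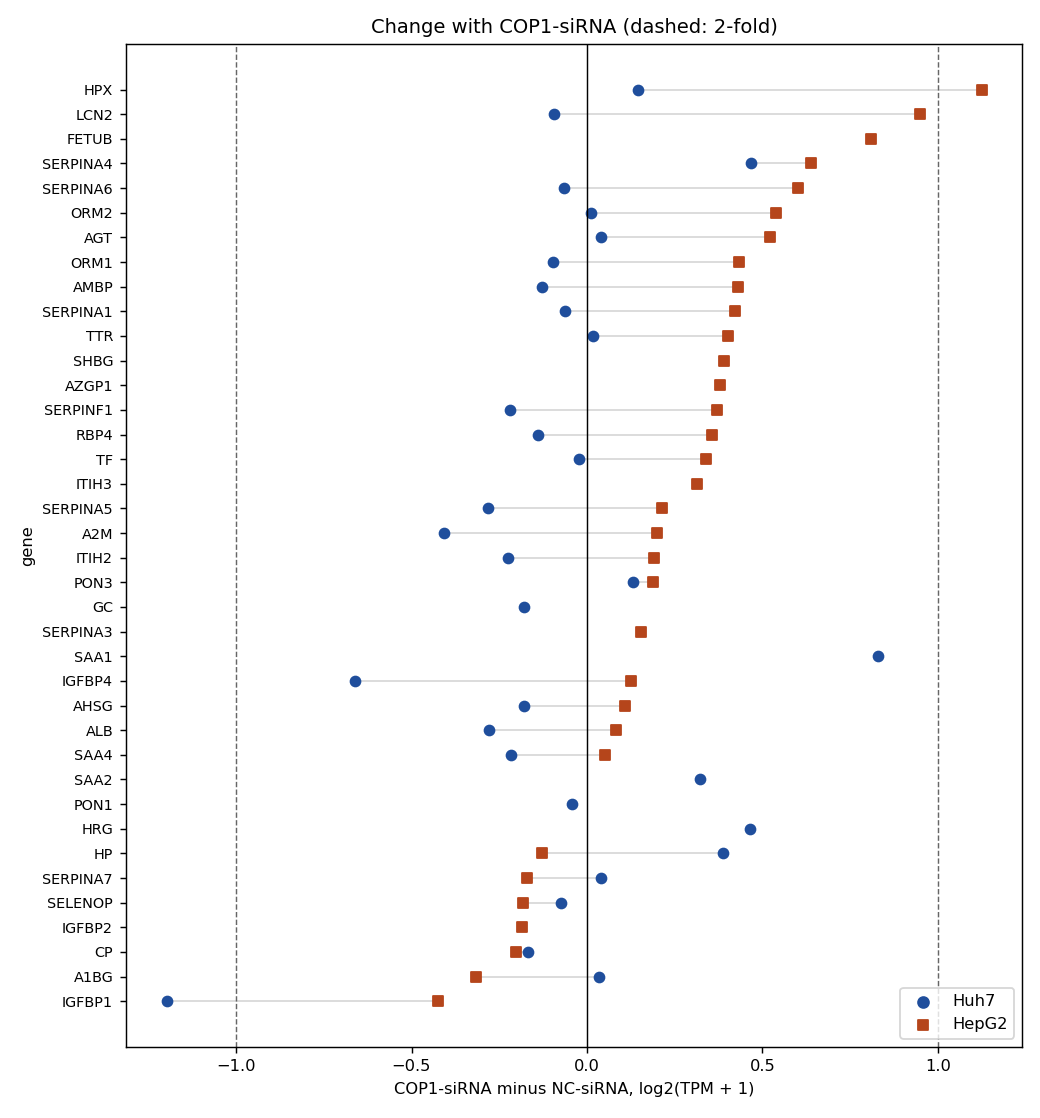
Each row is a gene and each symbol its log2 difference between COP1-siRNA and NC-siRNA in Huh7 (blue circles) or HepG2 (orange squares), shown where the gene was tested in that line; dashed lines mark 2-fold. Most HepG2 squares lie right of 0, up to 1.12 for HPX, and most Huh7 circles lie left of 0, down to −1.20 for IGFBP1.

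By direction alone, the lines differed. In HepG2, 26 of 33 genes tested were higher with COP1-siRNA (78.8%), where 48.3% of all genes tested were, and 7 were lower (51.7% of all genes). In Huh7, 12 of 32 genes were higher (37.5%), where 49.9% of all genes were, and 20 were lower (50.1% of all genes). The median log2 difference of the genes tested was 0.31 in HepG2 and −0.07 in Huh7, and −0.00803 and −0.000833 over all genes tested. The HepG2 count stayed at 26 of 33 under 5 other scalings or columns. These were FPKM, depth-scaled coverage, median-of-ratios, upper-quartile and rescaling to genes outside the list. They rescale a whole library or draw on the same reads, so few signs could change and the agreement is no independent check. The Huh7 count was 12 to 14 of 32 under them. With no minimum level, 31 of all 43 genes were higher, 9 lower and 3 equal in HepG2, and 16, 23 and 4 in Huh7. The shares over all genes were not taken there, so these counts have no background. The median log2 difference of the 43 genes was 0.17 in HepG2 and −0.02 in Huh7. Over all genes it was 0 in each line, but this is no background. Of 46427 genes only 14456 in HepG2 and 13000 in Huh7 reached 1 TPM, and genes near 0 in both libraries fix that median.

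The 7 genes that were lower in HepG2 with COP1-siRNA were HP, CP, SELENOP, SERPINA7, IGFBP1, IGFBP2 and A1BG, with log2 differences between −0.43 and −0.13. Of 27 genes tested in both lines, 15 were lower in Huh7 and higher in HepG2 (55.6%), against 19.8% of 11970 genes. A further 6 were higher in both lines (29.2% of all genes) and 3 lower in both (31.0% of all genes), with CP, SELENOP and IGFBP1 as the latter. The other 3, HP, SERPINA7 and A1BG, were higher in Huh7 and lower in HepG2 (20.0% of all genes). None of the 27 passed 1.5-fold in the same direction in both lines, as 0.351% of all genes did upward and 0.493% downward. The log2 difference was −0.28 in Huh7 and 0.08 in HepG2 for ALB, and −0.14 and 0.36 for RBP4. Of the genes that reached 100 TPM in any library, those with at least 0.40 in HepG2 were ORM2 (0.54), AGT (0.52), ORM1 (0.43), AMBP (0.43), SERPINA1 (0.42) and TTR (0.40).

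The liver markers outside the list moved with these genes. All 8 hepatocyte and hepatoma markers were higher with COP1-siRNA in HepG2, with a median log2 difference of 0.36, and FGB, the fibrinogen beta chain, went from 6.97 to 15.5 TPM. In Huh7, 2 of the 8 were higher and 6 lower, with a median of −0.10. Their summed TPM, in Huh7 mostly AFP and FGB, was 11358 and 10665 in Huh7 and 1245 and 1512 in HepG2. Between the lines, 7 of the 8 were higher in Huh7 with NC-siRNA and 6 with COP1-siRNA. APOH went the other way, with 86.9 and 89.6 TPM in Huh7 and 314 and 360 TPM in HepG2. APOA1 was at 234 and 212 TPM in Huh7 and at 234 and 317 TPM in HepG2. The 3 cholangiocyte markers, mostly KRT19, summed to 227 and 226 TPM in Huh7 and to 68.9 and 93.7 TPM in HepG2. The 5 leukocyte and macrophage markers, mostly LYZ, summed to 208 and 177 TPM in Huh7 and to 208 and 167 TPM in HepG2. The 4 endothelial markers summed to 5.08 and 7.36 TPM in Huh7, all of it PECAM1, and to 0.275 and 0.416 TPM in HepG2. The 5 stellate cell markers summed to 0.623 and 0.557 TPM in Huh7 and to 13.5 and 17.9 TPM in HepG2, there mostly ACTA2. The part of any of these in the results was not tested.

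The signalling and transcription factor genes that govern this set were examined as a list of 28. None passed 2-fold with COP1-siRNA, of 28 tested in Huh7 and 26 in HepG2, where 0.638% and 0.446% of all genes were higher and lower by as much in Huh7 and 0.540% and 0.394% in HepG2, so counts of 0 do not set the list apart. Their log2 differences lay between −0.47 (CEBPA) and 0.36 (IL1R1) in Huh7 and between −0.20 (IRAK1) and 0.56 (IL1R1) in HepG2. STAT3, the transcription factor of the interleukin-6 pathway, had 0.11 and 0.14 in Huh7 and HepG2. HNF4A, a nuclear receptor of hepatocyte genes, had −0.13 and 0.37.

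Between the lines, 17 of the 28 were at least 2-fold higher in Huh7 with NC-siRNA and 2 lower, and 16 were higher and 1 lower with COP1-siRNA. The background is that given above, 14.7% and 27.9% of all genes with NC-siRNA. Among the liver factors, HNF4A was at 64.6 and 58.9 TPM in Huh7 and at 9.13 and 12.1 TPM in HepG2, and FOXA2 at 80.1 and 61.3 TPM against 2.87 and 2.92 TPM. CEBPA, a C/EBP factor of differentiated hepatocytes, was at 169 and 122 TPM in Huh7 and at 23.7 TPM in both HepG2 libraries. ONECUT1, CEBPB, CEBPD and FOXA1 were also at least 2-fold higher in Huh7 with both siRNAs.

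On the signalling side, the interleukin-6 receptor IL6R was at 18.1 and 20.8 TPM in Huh7 and at 3.36 and 4.90 TPM in HepG2. OSMR, the oncostatin M receptor, was at 119.6 and 91.1 TPM in Huh7 and at 4.39 and 4.27 TPM in HepG2. SOCS3, which is induced by STAT3 and dampens the pathway, was at 6.13 and 7.69 TPM in Huh7 and at 0.38 and 0.209 TPM in HepG2. IL6ST, IL1R1, IL1RAP and MYD88 were at least 2-fold higher in Huh7 with both siRNAs, JAK1 and SOCS1 only with NC-siRNA and NFKB1 only with COP1-siRNA. IRAK1 was at least 2-fold lower in Huh7 with both siRNAs and PIAS3 with NC-siRNA. STAT3 itself was at 47.3 and 51.2 TPM in Huh7 and at 33.2 and 36.6 TPM in HepG2, a log2 difference of 0.50 and 0.47.

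By position, 21 of the 43 genes lie in 7 groups of neighbours, each less than 1000000 bases apart. Neighbours often differed in level or in the line with the higher level. On chromosome 14, SERPINA6, SERPINA1, SERPINA4, SERPINA5 and SERPINA3 lie in this order between 94304248 and 94624053, and in Huh7 SERPINA3 was at most 0.246 TPM while SERPINA5, next to it, was at 83.7 TPM or more. On chromosome 3, ITIH3 was read in HepG2 between ITIH1 and ITIH4, which were under 1 TPM. Also on chromosome 3, AHSG was at 207 TPM or more in all 4 libraries and its neighbours FETUB and HRG at most 1.73 TPM. A2M was at 167 TPM or more beside PZP, PON3 was read in both lines beside PON1, and SAA4 was even between the lines beside SAA2 and SAA1. AMBP, ORM1 and ORM2 on chromosome 9 were all higher in Huh7.

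**Figure D5:**
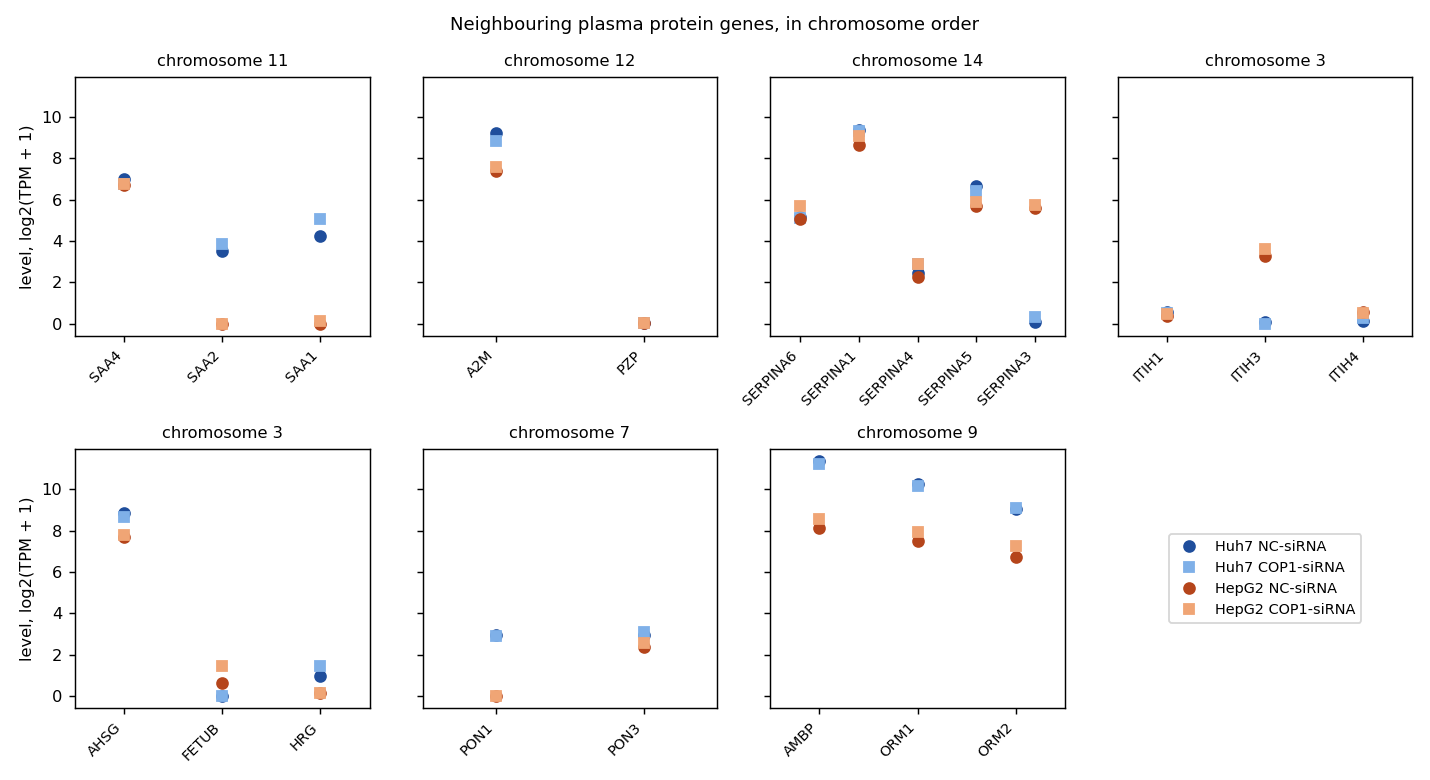
Each panel is a group of neighbouring plasma protein genes in chromosome order, with the level as log2(TPM + 1) in the 4 libraries. SERPINA3 and ITIH3 have orange HepG2 symbols well above the blue ones, and SAA2, SAA1 and PON1 the reverse, beside neighbours where the 4 libraries lie close together.

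Sequence around the start site was given by RefSeq (GRCh38.p14) for 31 of the 43 genes, some with several starts. The letters TTGCNNAA, a simple form of the C/EBP site, occurred on either strand in 10 of the 31 (32.3%), against 12.7% of 27305 genes with windows of the same length. The letters TTCNNNGAA, a form of the STAT site, occurred in 6 (19.4%, against 9.38%). The longer forms were rare. CAAAGTCCA for HNF4 occurred in 1 gene (3.23%, against 0.472%), while the NF-kB consensus (0.227% of all genes) occurred in none. A match is a run of letters and not a shown binding site.

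The stretches with the C/EBP letters are shown for albumin, the most abundant gene, and for HPX and LCN2, the genes with the largest differences in HepG2 (chosen after their values were seen), with the matching letters in capitals. They lie at chr4:73404151-73404180 on the plus strand (ALB), chr11:6441172-6441201 on the minus strand (HPX) and chr9:128149299-128149328 on the plus strand (LCN2), beginning 125, 203 and 143 bases before the start site at the first capital.
ALB: tcaaacaatttTTTGGCAAgaatattatga
HPX: ctgcttgaaaaTTGCTGAAgggggttgggg
LCN2: gtccctctgtcTTGCCCAAtcctgaccagg
The same letters were found in AHSG, FETUB, RBP4, SAA4, SERPINA7, SHBG and TF, genes with log2 differences in HepG2 from −0.17 (SERPINA7) to 0.81 (FETUB).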

How the data were processed

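Poly(A) RNA, prepared with a stranded kit, was analysed in 4 libraries, 1 per line and siRNA, grouped by their titles. The authors deposited for each library a gene table with coverage, FPKM and TPM. Within each deposited library TPM sum to 1000000 and FPKM differ from TPM by a constant factor, and the deposited coverage is the mean number of reads per base, not normalized for depth. The submitters' processing notes name FastQC 0.11.7, Trimmomatic 0.38, HISAT2 2.1.0, StringTie 2.1.3b, edgeR and GRCh38; the annotation is not given in the sources used here. The tables carry no usable gene symbols, so gene numbers were matched to RefSeq symbols (44698 of 46427 matched; all 43 of the list). Repeated gene numbers were summed. Log2 ratios of TPM + 1 were computed for every gene with at least 1 TPM in 1 library compared, with 2-fold as threshold. The study's rule joined a 2-fold change with a p-value limit, which was not applied here. No test was possible within a line, with 1 library per condition, and a fit over both lines together was not made.

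The list of genes, the marker and pathway lists and the rules were chosen with earlier results of these data known. TPM in all libraries was given for genes that reached 100 TPM, differed 1.5-fold with COP1-siRNA, differed 4-fold between the lines with both siRNAs, or belong to a near-identical pair, and others mostly by their range or as examples. Of the pathway list, the genes that passed 2-fold were named apart from 1 factor, and of the marker lists only some were. Alternatives were a pseudocount of 0.1, FPKM, depth-scaled coverage, median-of-ratios and upper-quartile scaling, rescaling to genes outside the list, no minimum or 5 TPM, 1.5-fold, repeated numbers kept apart and paralog pairs summed. A median was taken as moved when it shifted by 0.1 or more. Shared 50-base windows and coding sequences come from GENCODE 29 transcripts. Of the pathway and marker lists and the promoter motifs, 1 factor counted in the lists is not reported here by name. The computation was tested on simulated data. Python 3.11.15, numpy 2.4.6, pandas 2.3.3, Biopython 1.88 and matplotlib 3.10.9 were used.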

Additional observations from a re-analysis of the deposited data

Results flagged for a closer look

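With COP1-siRNA, the summed share of the 43 genes and 2 single genes were flagged for opposite directions in the lines. The single genes are those with at least 0.2 on the log2 scale in each line. The limit does not set them apart, as 15 of 27 genes tested in both lines were lower in Huh7 and higher in HepG2. A2M missed it narrowly, with −0.41 in Huh7 and 0.1998 in HepG2, a difference of −0.61. The difference between the lines was not tested, since each condition had 1 library. The summed share of the 43 genes had a log2 change of −0.18 in Huh7 and 0.22 in HepG2, a difference of −0.40. SERPINA5 had −0.28 and 0.21, a difference of −0.50, and SERPINF1 had −0.22 and 0.37, a difference of −0.59.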

How the results depend on the processing

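With COP1-siRNA, the number of genes past 2-fold was small and moved with the setting. In Huh7, 1 gene was lower in the main setting, none with FPKM and 2 at 1.5-fold, and 1 was higher at 1.5-fold. In HepG2, 1 gene was higher in the main setting, 3 with a pseudocount of 0.1, 0 with FPKM, 0 with a minimum of 5 TPM and 5 at 1.5-fold. The median log2 difference in HepG2 was 0.31, and 0.17 with no minimum. Between the lines with NC-siRNA the median was 1.37, and it was 1.5 with a pseudocount of 0.1, 1.20 with FPKM, 1.61 with median-of-ratios scaling, 0.98 with no minimum and 1.83 with a minimum of 5 TPM. With COP1-siRNA it was 1.19, and 1.37 with a pseudocount of 0.1, 0.83 with FPKM, 1.34 with median-of-ratios scaling, 0.79 with no minimum and 0.99 with the paralog pairs summed. Between the lines with COP1-siRNA, 7 genes were at least 2-fold lower in Huh7 than in HepG2, and 4 with FPKM. The medians over the listed genes kept their sign under these settings, while the median of all genes tested with COP1-siRNA, close to 0, took either sign (Huh7 −0.01 to 0.05, HepG2 −0.02 to 0.01). Median-of-ratios scaling moved the median line difference of all genes from −0.37 to −0.14 with NC-siRNA and from −0.35 to −0.13 with COP1-siRNA. On depth-scaled coverage the share of the 43 genes was 2.32% and 2.02% in Huh7 and 0.441% and 0.512% in HepG2, and by TPM without albumin it was 1.11%, 1.03%, 0.227% and 0.279%; these 2 were added once the data were known. FPKM are smaller than TPM by a constant factor in each library, so the added 1 weighs more with FPKM. Beyond this, the cause of these shifts was not tested. No paired analysis was possible because each comparison sets 1 library against 1 and the replicate number is only a name, and for the same reason no library could be left out. A fit of both lines together with the line as a block, which asks for a change common to the lines, was not run. The tables hold no read counts, so values under about 1 TPM, such as those of LCN2 and FETUB in HepG2 with NC-siRNA, rest on an unknown and small number of reads.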
